A study of Mus musculus with 9 samples.

Results

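Axon guidance ligands and receptors were followed in ST2 cells, a mouse bone marrow-derived stromal line used as a mesenchymal stem cell model. The genes were taken by name from the protein-coding rows of the count table and cover the semaphorins of classes 3 to 7, the plexins, the 2 neuropilins, the ephrins, the Eph receptors, the Slits and the Robos. Of the 54532 genes in the table, 60 belonged to these families, and 40 of them had enough reads to be tested, among 14004 genes tested in all. Poly-A RNA was sequenced from 9 libraries of wild-type ST2 cells, 3 for each of 3 groups, all labelled 72 h. The groups were vehicle (Veh), Wnt3a, a human recombinant protein given at 50 ng/ml (rhWnt3a), and rhWnt3a together with OSMI (rhWnt3aOSMI), an inhibitor of the O-GlcNAc transferase OGT that was used at 20 µM. The titles name rhWnt3a and OSMI for the third group, as do the study's Results, whereas its treatment label and the study's Methods name OSMI alone. The dose of rhWnt3a in that group is not given on its labels. By the titles no group received OSMI by itself, so the effect of OSMI could be read only on top of rhWnt3a. The 3 comparisons ask which guidance genes rhWnt3a changed, which of them changed when OSMI was added, and where cells with both stood against Veh. All libraries are of 1 cell line. The study calls the 3 per group biological replicates and does not say whether they were separate cultures. The p-values therefore measure only the spread between these libraries.

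Guidance cues steer growing axons and migrating cells by attraction or repulsion. Class 3 semaphorins are secreted and bind neuropilins, which pass the signal on through plexins, while semaphorins of other classes are mostly held at the membrane and bind plexins directly. Ephrins are membrane-bound ligands of the Eph receptor tyrosine kinases, and an ephrin on one cell can also signal back into its own cell. A-type ephrins are anchored by a lipid and B-type ephrins cross the membrane. Slits are secreted and bind Robo receptors. Outside the nervous system the same families act in vessels and in bone, where semaphorins and ephrins pass between bone-forming and bone-resorbing cells.

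The libraries held 16135898 to 17583945 counts each, and 3 counts, the floor used here, corresponded to 0.170 to 0.191 CPM (counts scaled to library totals after TMM). Axin2, a direct target of canonical Wnt signalling, stood at 0.244 to 0.892 CPM in Veh, at 16.8 to 21.6 CPM with rhWnt3a and at 10.6 to 17.3 CPM with rhWnt3a and OSMI. In each group 1 library stood apart from the other 2, namely Veh replicate 3, rhWnt3a replicate 2 and rhWnt3aOSMI replicate 3. The first axis of the deviations from group means held 54.8% of their variance and put Veh replicates 1 and 2, rhWnt3a replicates 1 and 3 and rhWnt3aOSMI replicate 3 on one side (A), and the other 4 libraries on the other side (B). Side A therefore holds 2 of 3 libraries in Veh and with rhWnt3a but 1 of 3 with OSMI. The deviations rose or fell with gene length (slopes of -0.101 to 0.133 log2 units per doubling of length), and the tested guidance genes were long, with a median of 7220.5 bases against 4039.5 for all tested genes. Their median deviation ran from -0.25 in Veh replicate 3 and rhWnt3a replicate 2 to 0.31 in rhWnt3aOSMI replicate 3. Stromal markers summed to 20660 to 27270 CPM in Veh, 17080 to 20140 CPM with rhWnt3a and 8560 to 16940 CPM with OSMI. The collagens Col1a1, Col1a2 and Col3a1 made up most of these sums. Other stromal markers were low, with Thy1 at 0 to 4 counts, Eng at 11 to 49 and Nt5e at 14 to 80. Markers of other cells were low and also moved with treatment: 6 neuronal markers summed to 5.88 to 7.57, 3.16 to 3.65 and 3.27 to 4.43 CPM in the 3 groups, with Nefl at 0 and Rbfox3, Snap25 and Elavl4 at 3 counts or fewer, 6 endothelial markers to 1.70 to 2.803, 0.243 to 0.479 and 0.484 to 0.746 CPM, with Tie1 at 0 and Cdh5 and Kdr at 3 counts or fewer, 5 blood-cell markers to 1.10 to 1.98, 0.419 to 0.852 and 0.350 to 1.21 CPM, with Hbb-bs at 0 and Ptprc and Adgre1 at 3 counts or fewer, and 5 markers of glia and neural crest to 11.1 to 12.9, 6.33 to 9.55 and 1.75 to 3.56 CPM, with none at 0 in all libraries. The highest of the markers of other cells were S100b (11 to 157 counts), Syt1 (23 to 81) and Tubb3 (18 to 58). The part of other cells in the results was not tested. In bulk RNA fewer cells of a type cannot be told apart from less RNA per cell.

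ST2 cells carried transcripts of each of the families, at unequal levels. All 8 ephrins passed the filter on low counts, as did 9 of 14 Eph receptors, 12 of 20 semaphorins, 8 of 11 plexins and neuropilins, and 3 of 7 Slits and Robos. Levels are compared between genes in RPKM, the CPM divided by the gene length in kilobases. Nrp2, a neuropilin that serves as a co-receptor of class 3 semaphorins, had the highest mean over the 9 libraries, 79.8 RPKM, at percentile 96.5 of the tested genes. Plexin-B2 (Plxnb2) followed at 50.6 RPKM, plexin-A1 (Plxna1) at 32.4 RPKM, the semaphorins Sema3c at 31.3 RPKM and Sema3d at 30.5 RPKM, and ephrin-A5 (Efna5) at 24.96 RPKM. Some orders held library by library. Nrp2 lay above Nrp1 in all 9 libraries and took 82.9% to 88.5% of the summed neuropilin level. Among the EphA receptors the order Epha2, Epha3, Epha4, Epha7, Epha1 was the same in the 3 groups, with no overlap between neighbours in any group. Plxnb2 lay above Plxna1, and Ephb4 above Ephb3, in each of the 9 libraries, although the ranges of the first pair overlapped with rhWnt3a and those of the second in Veh and with OSMI. Among the Slits, Slit2 made up 99.3% to 99.9% of the summed level.

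**Figure D1:**
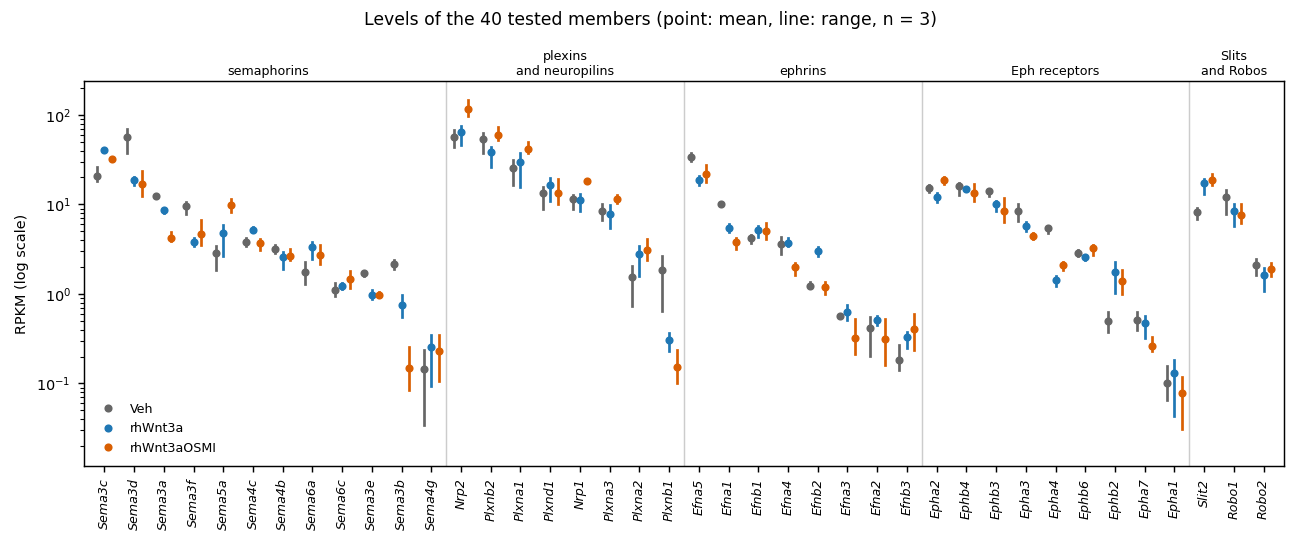
Levels of the 40 tested guidance genes in RPKM (log scale), ordered by mean level within each family, with points for group means and lines for the range of 3 libraries per group (grey Veh, blue rhWnt3a, orange rhWnt3aOSMI). Nrp2 lies highest, Sema3c and Sema3d exchange places between Veh and rhWnt3a, Sema3b falls from Veh to rhWnt3a to rhWnt3aOSMI, and Plxnb1 is lower in both treated groups than in Veh.

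The 20 guidance genes that missed the filter were at the edge of detection. Of these, 6 genes, Sema6d, Epha6, Epha8, Epha10, Robo3 and Robo4, had 0 counts in each of the 9 libraries, which allows up to 0.170 to 0.191 CPM per library. Sema5b and Ephb1 had 1 count in a single library each. Epha5 (0 to 3 counts), Plxna4 (0 to 3), Slit3 (0 to 3) and Sema4f (0 to 4) stayed near that floor, and Sema3g (0 to 7), Sema4a (1 to 13), Slit1 (1 to 13), Plxnc1 (2 to 13), Sema4d (1 to 13), Sema6b (2 to 14) and Sema7a (3 to 14) lay just above it. Plxnb3, a relative of Plxnb1, had 26, 17 and 2 counts in the Veh libraries, 0, 0 and 2 with rhWnt3a, and 5, 0 and 2 with OSMI, so 2 of the 3 Veh libraries were above all others. Of the genes that passed, 34 reached the filter's level of 0.595 CPM in all 9 libraries.

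rhWnt3a changed 13 of the 40 tested guidance genes. Calls required both an edgeR adjusted p below 0.05 and a log2 fold change above 0.5 or below -0.5. The 4 called higher were Sema3c, Slit2, Efnb2 and Ephb2, or 10% of the tested genes of these families against 2.92% of all tested genes. The 9 called lower were Sema3a, Sema3b, Sema3d, Sema3e, Sema3f, Plxnb1, Efna1, Efna5 and Epha4, or 22.5% against 5.86%. The median log2 fold change of the 40 genes was -0.05, beside 0.04 over all tested genes. Both called shares lay above the background while the median of the families stayed near it. In fits added after seeing the data, the count was 20 without the 3 libraries that stood apart, of 41 tested (18.1% of all genes called, against 8.78%), and 20 of 45 on the 5 libraries of side A (17.3%).

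Adding OSMI changed 4 of the 40 genes against rhWnt3a alone. Epha2 was called higher, 2.5% against a background of 1.69%, and Sema3a, Sema3b and Efnb2 were called lower, 7.5% against 3.05%. The median was -0.14, beside -0.01 over all tested genes. This count depended on the libraries in the fit: without the 3 libraries that stood apart it was 15 of 41, with 1 higher and 14 lower, and on the 5 libraries of side A, where a single OSMI library stands for its group and is assumed to vary like the others, it was 17 of 45, with 11 higher and 6 lower. The share of all genes called moved as well, from 4.74% to 12.7% and 27.2%. The count was 10 by DESeq2 (9.26% of all genes) and 6 without Veh replicate 3 (5.33%). It was 2 without rhWnt3aOSMI replicate 1 (1.67%) and 2 without rhWnt3aOSMI replicate 2 (1.41%).

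Cells with rhWnt3a and OSMI differed from Veh in 17 of the 40 genes. The 6 called higher, 15% against a background of 4.84%, were Sema3c, Sema5a, Slit2, Nrp1, Nrp2 and Ephb2. The 11 called lower, 27.5% against 9.34%, were Sema3a, Sema3b, Sema3d, Sema3e, Sema3f, Plxnb1, Efna1, Efna4, Efna5, Epha3 and Epha4. The median was -0.09, beside -0.01 over all tested genes. Without Veh replicate 1 the count was 11, the lowest of the fits that left out 1 library. In that fit 8.53% of all genes were called, against 14.2%. Without the 3 libraries that stood apart it was 22 of 41, with 5 higher and 17 lower, and on side A 24 of 45, with 12 higher and 12 lower, where 23.7% and 34.3% of all genes were called, against 14.2%. The comparisons share libraries, the rhWnt3a group standing in both treatment steps and Veh in both comparisons against it, so their values are set side by side and not as independent support. In all, 19 genes were called in at least 1 comparison and 21 in none. Of the 19, 18 reached the filter's level in all 9 libraries, and Sema3b reached it in 7, in all of Veh and of rhWnt3a.

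**Figure D2:**
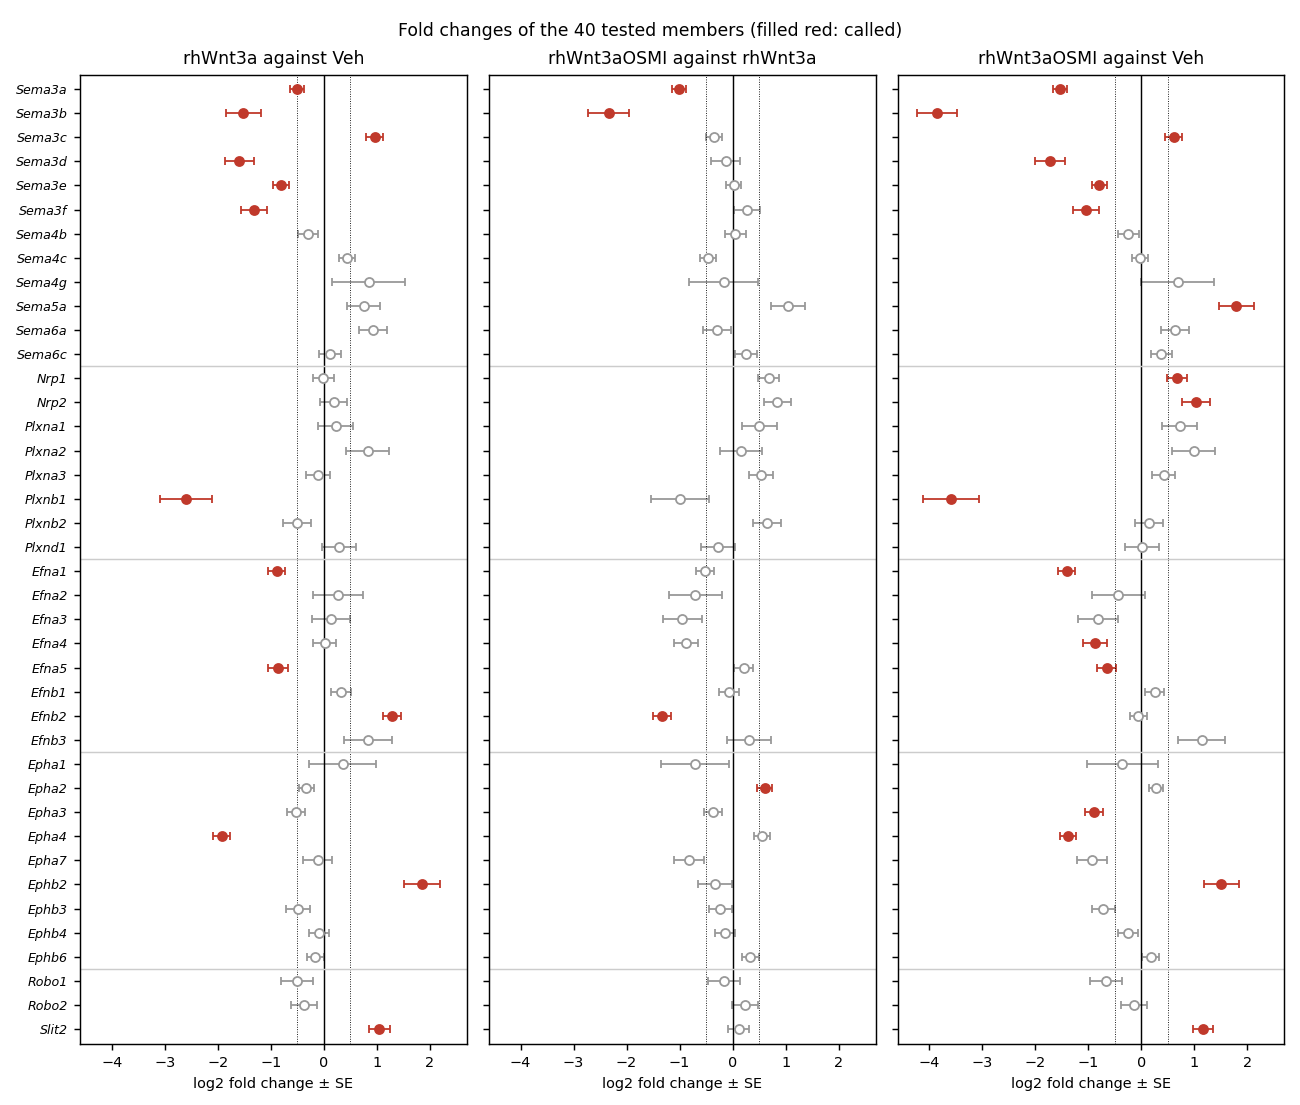
Log2 fold changes with standard errors of the 40 tested guidance genes in the 3 comparisons, with filled red points for called genes, dotted lines at the threshold of 0.5 and grey lines between families. Called genes number 13, 4 and 17 from left to right, and Sema3a and Sema3b are filled in each panel.

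The promoters of the called genes were searched on both strands for CTTTGA, called the core below. It is a form of the core of the motif bound by the TCF/LEF factors of canonical Wnt signalling. RefSeq promoters of GRCm38.p6, 250 bases before to 50 bases after a start, were matched for 53 of the 60 genes, including 17 of the 19 called, by taking the start nearest to the gene's 5′ end in the count table. The core was present in 16% of the 32851 promoters of the RefSeq table, in 3 of the 35 tested guidance genes with a promoter, and in 3 of the 17 called ones. It was in none of the 4 promoters of genes called higher with rhWnt3a and in 1 of the 7 matched for genes called lower. The promoters with the core belong to Epha2, Nrp2 and Sema3e. They are shown for the 250 bases before the start, with the core in capitals (as its reverse complement, TCAAAG, in Sema3e), beside that of Slit2, which rose with rhWnt3a and holds no match.
Epha2, chr4:141300971-141301220, + strand: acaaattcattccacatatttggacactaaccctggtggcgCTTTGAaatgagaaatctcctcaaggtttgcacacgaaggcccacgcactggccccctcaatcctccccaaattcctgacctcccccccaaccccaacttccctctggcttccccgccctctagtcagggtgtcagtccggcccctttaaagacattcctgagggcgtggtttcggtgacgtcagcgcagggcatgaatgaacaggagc
Nrp2, chr1:62703067-62703316, + strand: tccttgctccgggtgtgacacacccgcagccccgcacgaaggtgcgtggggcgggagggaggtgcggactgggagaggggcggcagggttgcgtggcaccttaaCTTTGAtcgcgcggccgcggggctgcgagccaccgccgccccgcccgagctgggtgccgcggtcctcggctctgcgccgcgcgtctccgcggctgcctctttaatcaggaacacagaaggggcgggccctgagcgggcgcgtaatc
Sema3e, chr5:14025026-14025275, + strand: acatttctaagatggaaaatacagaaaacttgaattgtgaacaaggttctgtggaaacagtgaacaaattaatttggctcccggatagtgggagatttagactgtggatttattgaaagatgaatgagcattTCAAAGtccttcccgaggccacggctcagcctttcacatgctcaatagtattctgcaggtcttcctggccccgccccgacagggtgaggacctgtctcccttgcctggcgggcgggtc
Slit2, chr5:47982905-47983154, + strand: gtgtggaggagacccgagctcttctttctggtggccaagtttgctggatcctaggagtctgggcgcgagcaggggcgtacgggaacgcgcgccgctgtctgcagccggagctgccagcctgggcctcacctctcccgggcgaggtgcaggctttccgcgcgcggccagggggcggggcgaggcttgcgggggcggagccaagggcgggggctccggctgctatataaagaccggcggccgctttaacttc
The RefSeq start lies 19 bases from that of the count table in Epha2, 32 in Nrp2, 0 in Sema3e and 17 in Slit2. For other called genes the start of the count table lies outside the window. It is 219 bases from the RefSeq start in Sema3d, 469 in Nrp1, 535 in Sema3c and 271370 in Sema3a. The windows of these genes do not hold the start the table gives. The core began 209 bases before the start in Epha2 and 146 bases before it in Nrp2, and the reverse complement lay with its first base 118 bases before it in Sema3e. A match is a description of these letters and not a bound site. Other forms of the core, other motifs and more distant regions were not searched.

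**Figure D3:**
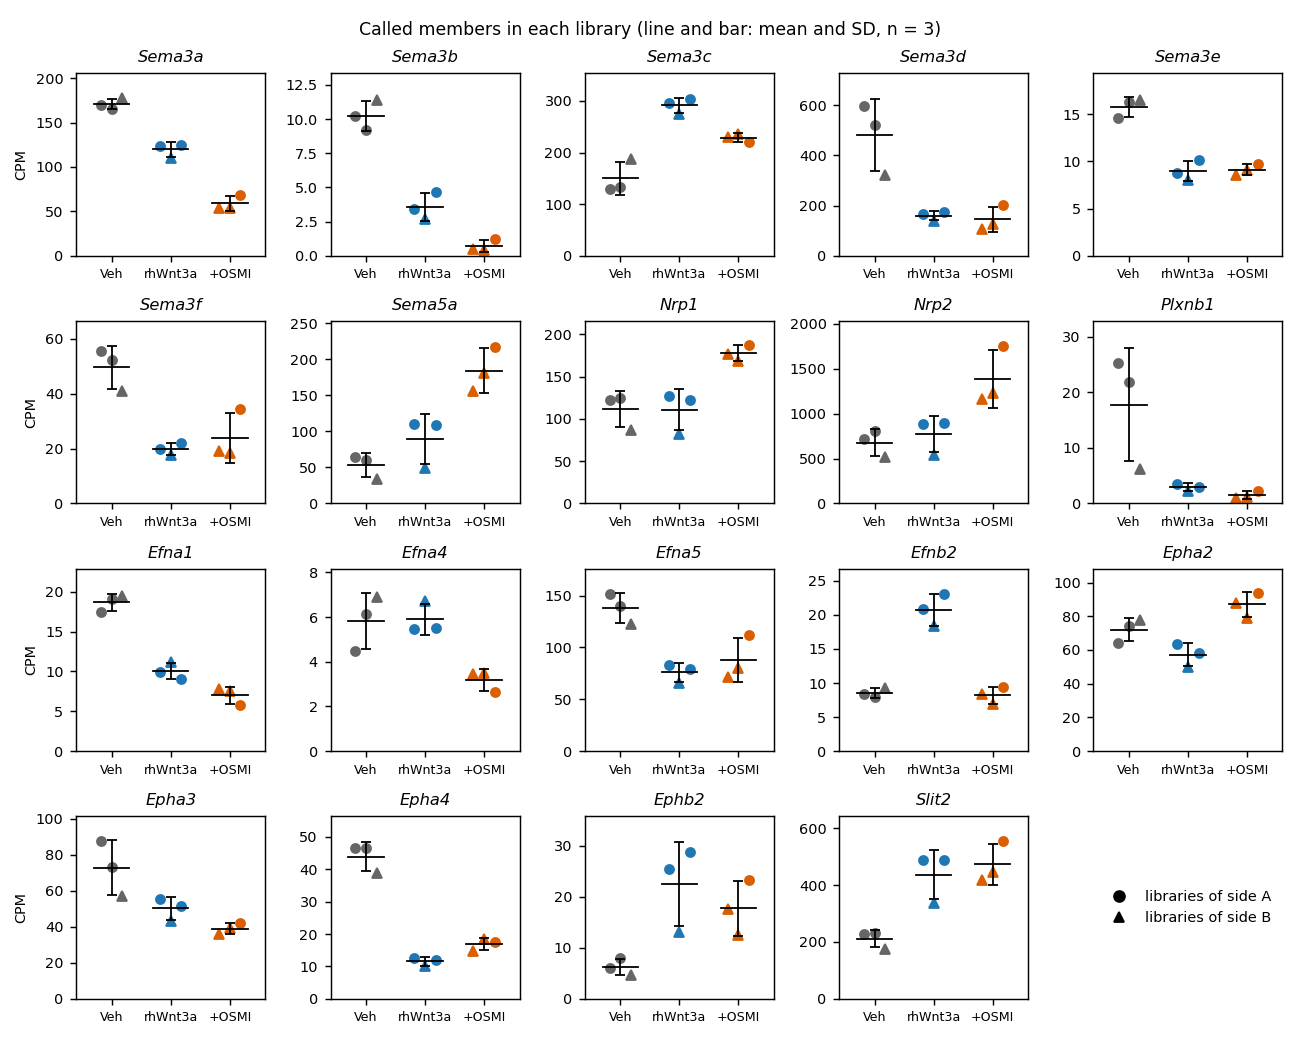
CPM of the 19 guidance genes called in at least 1 comparison, in each of the 9 libraries (grey Veh, blue rhWnt3a, orange rhWnt3a with OSMI), with circles for side A, triangles for side B, and lines and bars for the mean and SD of 3 libraries. Sema3a and Sema3b step down with each treatment, Efnb2 rises with rhWnt3a and returns with OSMI, and Sema5a, Nrp1 and Nrp2 are highest with OSMI.

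All 6 class 3 semaphorins that could be tested were called with rhWnt3a, 5 lower and 1 higher, and the leading member of the class changed. Of all tested genes 5.86% were called lower and 2.92% higher. Among the 6 calls, that of Sema3a was lost in 8 of 9 fits with 1 library left out. In Veh, Sema3d held 42.5% to 60.8% of the summed class 3 level, and with rhWnt3a Sema3c held 54.4% to 56.9%. The summed level was 102.8 ± 13.1 RPKM (SD, n = 3) in Veh, 73.7 ± 5.31 RPKM with rhWnt3a and 59.05 ± 7.29 RPKM with rhWnt3a and OSMI. These genes encode secreted ligands, most of them known as repellents, and 4 of them lie on chromosome 5, with gaps of 536.5 kb from Sema3d to Sema3a, 422.7 kb from Sema3a to Sema3e and 3.32 Mb from Sema3e to Sema3c. The genes on chromosome 5 did not move alike, since Sema3d, Sema3a and Sema3e fell and Sema3c rose. Sema3b and Sema3f, which also fell, lie 72.3 kb apart on chromosome 9.

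**Figure D4:**
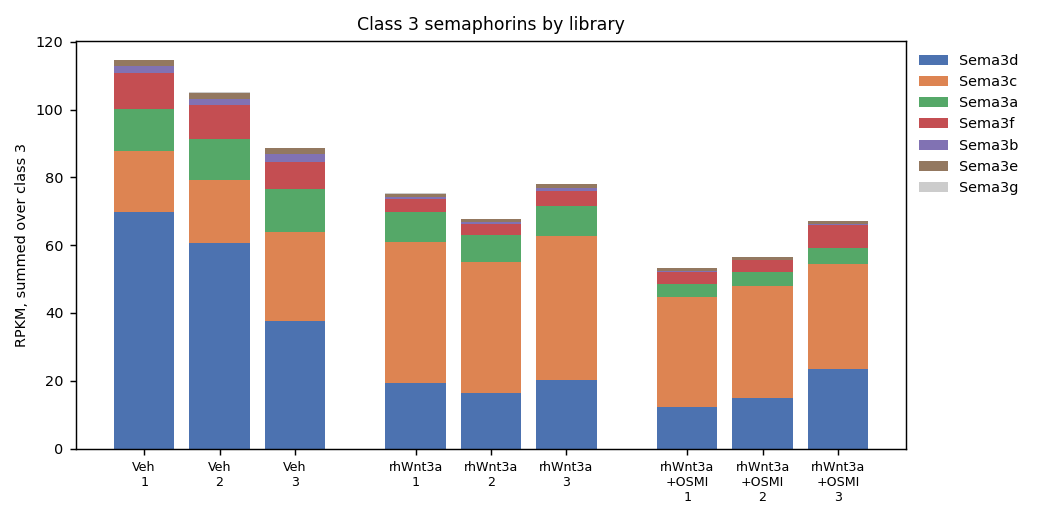
Summed RPKM of the class 3 semaphorins in each library as stacked bars, 3 libraries per group. The blue Sema3d segment is largest in the Veh libraries and the orange Sema3c segment in the 6 treated libraries, over a falling total.

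Sema3d (chr5:12383385-12588948, + strand, GRCm38 as for all positions below) stood at 599, 522 and 324 CPM in the Veh libraries, 165, 140.4 and 174 CPM with rhWnt3a, and 107, 128 and 202 CPM with rhWnt3a and OSMI. The Veh libraries lay above the 6 treated ones, which overlapped each other, and Veh replicate 3 was the lowest of its group. With rhWnt3a it fell (log2 fold change -1.59 ± 0.28, adjusted p = 0.00553), 3.01-fold, and it was lower against Veh with OSMI too (log2 fold change -1.72 ± 0.28, adjusted p = 0.00284). Sema3c (chr5:17574281-17730268, + strand), which can attract as well as repel, showed 129.9, 133 and 187 CPM in the Veh libraries, 297, 275 and 303 CPM with rhWnt3a, and 230.2, 237 and 220.0 CPM with rhWnt3a and OSMI. The rhWnt3a libraries were highest, those with OSMI lay between them and Veh, and no groups overlapped. Its rise with rhWnt3a was 1.95-fold (log2 fold change 0.96 ± 0.16, adjusted p = 0.00394). The difference that remained against Veh with OSMI (log2 fold change 0.61 ± 0.16, adjusted p = 0.0277) was lost in 5 of 9 fits with 1 library left out, at adjusted p of 0.0512 to 0.0956, namely those without Veh replicate 1 or 2, rhWnt3a replicate 3, or rhWnt3aOSMI replicate 1 or 2. It was also lost with a gene length correction, at a log2 fold change of 0.47.

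Sema3a (chr5:13125414-13602565, + strand), a repellent that is also made by osteoblasts, had 170.2, 166 and 177 CPM in the Veh libraries, 123, 111 and 125 CPM with rhWnt3a, and 54.2, 54.2 and 68.7 CPM with rhWnt3a and OSMI. The 3 groups formed separate steps, Veh highest and OSMI lowest. The step with rhWnt3a was small (log2 fold change -0.51 ± 0.13, adjusted p = 0.036), and its call held without rhWnt3aOSMI replicate 3 but was lost without any of the other 8 libraries (adjusted p 0.0681 to 0.133), with the gene length correction, without the 3 libraries that stood apart and on side A. The step with OSMI was -1.02 ± 0.13 (adjusted p = 0.0038) and held in all 9 such fits, as did the difference from Veh of -1.53 ± 0.13 (adjusted p = 9.51e-05). Sema3b (chr9:107597674-107609229, - strand) followed the same order at lower levels, with 10.2, 9.17 and 11.4 CPM in the Veh libraries, 3.41, 2.67 and 4.67 CPM with rhWnt3a, and 0.484, 0.402 and 1.22 CPM with rhWnt3a and OSMI. Again no groups overlapped. It fell with rhWnt3a (log2 fold change -1.52 ± 0.32, adjusted p = 0.0157) and again with OSMI (log2 fold change -2.33 ± 0.39, adjusted p = 0.0107), for a difference from Veh of -3.85 ± 0.38 (adjusted p = 0.000194). The first call was lost without Veh replicate 1, rhWnt3a replicate 1 or rhWnt3a replicate 2 (adjusted p 0.0503 to 0.0751) and the second without rhWnt3aOSMI replicate 1 or 2 (0.0539 and 0.0562). Sema3a and Sema3b were the only guidance genes called in all 3 comparisons.

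Sema3e and Sema3f fell with rhWnt3a and were not called when OSMI was added. Sema3e (chr5:14025276-14256689, + strand), whose receptor is plexin-D1, had 14.6, 16.2 and 16.5 CPM in the Veh libraries, 8.82, 8.07 and 10.2 CPM with rhWnt3a, and 8.59, 9.12 and 9.67 CPM with rhWnt3a and OSMI. The Veh libraries were above all others, and the 2 treated groups overlapped. The fall was -0.81 ± 0.15 (adjusted p = 0.00704) with rhWnt3a and -0.79 ± 0.15 (adjusted p = 0.00618) against Veh with OSMI. Sema3f (chr9:107681500-107710475, - strand), a ligand of Nrp2, had 55.6, 52.3 and 40.9 CPM in the Veh libraries, 19.95, 17.7 and 22.02 CPM with rhWnt3a, and 18.99, 18.5 and 34.5 CPM with rhWnt3a and OSMI. Its Veh libraries were also above all others, with rhWnt3aOSMI replicate 3 the nearest to them. The changes were -1.32 ± 0.25 (adjusted p = 0.00773) with rhWnt3a and -1.05 ± 0.24 (adjusted p = 0.0179) against Veh with OSMI, and the second call was lost without Veh replicate 1 or 2 or rhWnt3aOSMI replicate 1 or 2 (adjusted p 0.0716 to 0.0856).

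Of the 6 tested semaphorins of other classes, Sema5a was the one called, and only against Veh with OSMI. Sema5a (chr15:32244810-32696341, + strand) is a membrane semaphorin with thrombospondin repeats, and it had 64.2, 60.7 and 34.4 CPM in the Veh libraries, 109.9, 49.5 and 108 CPM with rhWnt3a, and 155, 180.3 and 217 CPM with rhWnt3a and OSMI. The libraries with OSMI were above all others, while Veh and rhWnt3a overlapped through rhWnt3a replicate 2. Against Veh it was 3.47-fold higher with OSMI (log2 fold change 1.79 ± 0.33, adjusted p = 0.0053), and the separate steps were 0.75 ± 0.32 (adjusted p = 0.223) with rhWnt3a and 1.04 ± 0.32 (adjusted p = 0.0954) with OSMI, neither called by edgeR. With this the membrane semaphorin with the highest mean changed from Sema4c, 3.84 ± 0.385 RPKM (SD, n = 3) in Veh, to Sema5a, 9.85 ± 1.66 RPKM with OSMI. In Veh the range of Sema4c, 3.448 to 4.217 RPKM, overlapped that of Sema4b, 2.875 to 3.495 RPKM. With rhWnt3a alone Sema4c and Sema5a overlapped, at 4.976 to 5.576 and 2.65 to 5.88 RPKM. Sema4c, a class 4 ligand of plexin-B2, ranged over 15.8 to 19.4 CPM in Veh, 22.9 to 25.6 CPM with rhWnt3a and 14.4 to 18.7 CPM with rhWnt3a and OSMI, with log2 fold changes of 0.43 ± 0.15 (adjusted p = 0.123), -0.47 ± 0.15 (adjusted p = 0.109) and -0.03 ± 0.15 (adjusted p = 0.914) in the 3 comparisons, and with rhWnt3a all 3 of its libraries were above the others. Sema4b ranged over 16.2 to 19.7 CPM in Veh, 10.9 to 16.6 CPM with rhWnt3a and 13.5 to 17.9 CPM with rhWnt3a and OSMI, with -0.30 ± 0.20 (adjusted p = 0.487), 0.05 ± 0.20 (adjusted p = 0.894) and -0.25 ± 0.20 (adjusted p = 0.426), and its groups overlapped.

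The receptors of these ligands divided into neuropilins, which were highest with OSMI, and plexins, of which 1 of 6 was called. Nrp2 (chr1:62703285-62818695, + strand) had 719, 802 and 514 CPM in the Veh libraries, 884, 540.2 and 891 CPM with rhWnt3a, and 1165, 1231 and 1754 CPM with rhWnt3a and OSMI. Every library with OSMI was above every other, and Veh and rhWnt3a overlapped. Nrp2 was 2.04-fold higher with OSMI than in Veh (log2 fold change 1.03 ± 0.26, adjusted p = 0.0251), whereas the steps with rhWnt3a, 0.19 ± 0.26 (adjusted p = 0.792), and with OSMI, 0.84 ± 0.26 (adjusted p = 0.0953), were not called. Nrp1 (chr8:128358604-128503363, + strand), which is also a co-receptor of VEGF, had 123, 125 and 87.3 CPM in the Veh libraries, 127, 82.6 and 123 CPM with rhWnt3a, and 176, 169 and 187 CPM with rhWnt3a and OSMI. It too was above all others with OSMI (log2 fold change 0.67 ± 0.19, adjusted p = 0.0435 against Veh). Both calls were sensitive: that of Nrp2 was lost without Veh replicate 1, Veh replicate 3 or rhWnt3aOSMI replicate 3 (adjusted p 0.0576 to 0.0688), and that of Nrp1 in 7 of 9 such fits (0.0599 to 0.103), being kept without rhWnt3a replicate 1 or 2 only. The Nrp1 call was also lost with a gene length correction, at a log2 fold change of 0.49, and without the 3 libraries that stood apart, at 0.44, while that of Nrp2 held in both. On side A alone, where 1 library stands for OSMI, Nrp2 differed from Veh by 1.21 and Nrp1 by 0.60 on the log2 scale, and on side B, where 1 library stands for Veh, by 1.22 and 0.98.

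Plxnb1 (chr9:109095389-109119917, + strand), the receptor of Sema4d, had the largest fall of the tested guidance genes with rhWnt3a. It stood at 25.3, 21.9 and 6.22 CPM in the Veh libraries, 3.53, 2.22 and 3.05 CPM with rhWnt3a, and 0.967, 1.15 and 2.27 CPM with rhWnt3a and OSMI. Veh lay above all treated libraries, but Veh replicate 3 was far below the other 2. The log2 fold changes were -2.60 ± 0.50 (adjusted p = 0.00894) with rhWnt3a and -3.60 ± 0.53 (adjusted p = 0.00177) against Veh with OSMI, or 6.06-fold and 12.1-fold lower. The treated groups overlapped, and the step with OSMI was not called, -0.996 ± 0.54 (adjusted p = 0.305). Within sides the first difference was -2.80 on side A and -1.44 on side B. Its ligand gene Sema4d had too few reads to be tested. An antisense gene, Gm7628, shares 2.68% of the exon bases of Plxnb1, and without known strand settings their reads cannot be told apart there. The leading plexins were not called: Plxnb2 ranged over 289 to 487 CPM in Veh, 202 to 341 CPM with rhWnt3a and 407 to 565 CPM with rhWnt3a and OSMI, with log2 fold changes of -0.50 ± 0.27 (adjusted p = 0.346), 0.65 ± 0.27 (adjusted p = 0.189) and 0.14 ± 0.26 (adjusted p = 0.748). Plxna1, a partner of neuropilins, ranged over 151 to 284 CPM in Veh, 141 to 337 CPM with rhWnt3a and 337 to 451 CPM with rhWnt3a and OSMI, with 0.22 ± 0.33 (adjusted p = 0.815), 0.50 ± 0.33 (adjusted p = 0.388) and 0.73 ± 0.33 (adjusted p = 0.175). An antisense gene, Gm26811, shares 10.7% of its exon bases. For both Plxnb2 and Plxna1 the lowest library of Veh and of rhWnt3a was the one that stood apart.

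Among the ephrins, 2 of 5 A-type genes, Efna1 and Efna5, were called lower with rhWnt3a, and 1 of 3 B-type genes, Efnb2, was called higher. Of all tested genes 5.86% were called lower and 2.92% higher with rhWnt3a. The summed ephrin-A level was 49.1 ± 2.29 RPKM (SD, n = 3) in Veh, 29.2 ± 1.59 RPKM with rhWnt3a and 28.2 ± 4.44 RPKM with OSMI, and the summed ephrin-B level was 5.62 ± 0.525, 8.59 ± 1.07 and 6.59 ± 1.40 RPKM. Efnb2 (chr8:8617434-8661242, - strand), the ligand known for marking arteries and for exchange between osteoclasts and osteoblasts, had 8.37, 7.90 and 9.27 CPM in the Veh libraries, 20.9, 18.3 and 23.03 CPM with rhWnt3a, and 8.34, 6.89 and 9.38 CPM with rhWnt3a and OSMI. The rhWnt3a libraries were above all others, and Veh and OSMI overlapped. Efnb2 was 2.44-fold higher with rhWnt3a (log2 fold change 1.28 ± 0.17, adjusted p = 0.00102) and 2.53-fold lower again with OSMI (log2 fold change -1.34 ± 0.17, adjusted p = 0.00304), and both calls held with each library left out in turn. Against Veh the cells with both agents differed by -0.05 ± 0.17 (adjusted p = 0.855). Within sides the rise was 1.42 and 0.97 and the fall -1.22 and -1.26 on sides A and B.

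Efna5 (chr17:62604184-62881317, - strand), the ephrin with the highest level, had 152, 140.2 and 123 CPM in the Veh libraries, 83.2, 65.9 and 79.03 CPM with rhWnt3a, and 71.7, 79.7 and 112 CPM with rhWnt3a and OSMI. Veh was above all treated libraries, and rhWnt3aOSMI replicate 3 was the highest of these. Its falls were -0.86 ± 0.18 (adjusted p = 0.0156) with rhWnt3a and -0.66 ± 0.18 (adjusted p = 0.0373) against Veh with OSMI. The first call was lost without any 1 of Veh replicates 1 and 2 and the 3 rhWnt3a libraries (adjusted p 0.0505 to 0.0782), and the second without Veh replicate 1 or 2, rhWnt3a replicate 1 or 3, or rhWnt3aOSMI replicate 1 or 2 (0.0625 to 0.161), and on side A alone. Efna1 (chr3:89271733-89281142, - strand), a ligand of Epha2, had 17.4, 19.1 and 19.5 CPM in the Veh libraries, 9.98, 11.1 and 9.03 CPM with rhWnt3a, and 7.74, 7.52 and 5.77 CPM with rhWnt3a and OSMI. It formed 3 steps without overlap, and the fall was called with rhWnt3a (log2 fold change -0.89 ± 0.16, adjusted p = 0.00669) and against Veh with OSMI (log2 fold change -1.41 ± 0.16, adjusted p = 0.000486) but not between the treated groups (log2 fold change -0.52 ± 0.16, adjusted p = 0.104). Efna4 (chr3:89333390-89338028, - strand) had 4.46, 6.12 and 6.899 CPM in the Veh libraries, 5.48, 6.71 and 5.504 CPM with rhWnt3a, and 3.45, 3.501 and 2.62 CPM with rhWnt3a and OSMI. Its OSMI libraries were below all others, while Veh and rhWnt3a overlapped. The call against Veh (log2 fold change -0.87 ± 0.23, adjusted p = 0.0289) was kept without Veh replicate 1 or rhWnt3a replicate 2 and lost without any of the other 7 libraries (adjusted p 0.0501 to 0.105), and the antisense gene 4731419I09Rik shares 10.5% of its exon bases. Efna1, Efna3 and Efna4 lie in that order on chromosome 3, with gaps of 32.8 and 10.4 kb.

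The other ephrins were not called. Efnb1 ranged over 12.9 to 15.6 CPM in Veh, 15.01 to 19.6 CPM with rhWnt3a and 14.3 to 21.3 CPM with rhWnt3a and OSMI, with all groups overlapping and log2 fold changes of 0.32 ± 0.19 (adjusted p = 0.414), -0.07 ± 0.19 (adjusted p = 0.846) and 0.25 ± 0.19 (adjusted p = 0.395). Efna3 ranged over 1.34 to 1.47 CPM in Veh, 1.25 to 1.83 CPM with rhWnt3a and 0.525 to 1.27 CPM with rhWnt3a and OSMI, and its log2 fold changes were 0.13 ± 0.36 (adjusted p = 0.907), -0.95 ± 0.37 (adjusted p = 0.174) and -0.81 ± 0.38 (adjusted p = 0.178). An antisense gene, Gm15998, shares 14.1% of the exon bases of Efna3.

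Of the 9 tested Eph receptors, Epha4 was called lower and Ephb2 higher with rhWnt3a. Epha4 (chr1:77367185-77515088, - strand), a receptor for ephrins of both types, had 46.6, 46.4 and 38.7 CPM in the Veh libraries, 12.7, 10.01 and 11.9 CPM with rhWnt3a, and 14.9, 18.5 and 17.4 CPM with rhWnt3a and OSMI. The groups did not overlap: Veh was highest and rhWnt3a lowest. Epha4 fell 3.81-fold with rhWnt3a (log2 fold change -1.93 ± 0.15, adjusted p = 7.35e-05) and stayed lower against Veh with OSMI (log2 fold change -1.38 ± 0.15, adjusted p = 0.000358). The difference between the treated groups was not called (log2 fold change 0.56 ± 0.15, adjusted p = 0.0692). Ephb2 (chr4:136647539-136835988, - strand), a receptor of B-type ephrins and known as a Wnt target in the gut, had 6.05, 7.90 and 4.69 CPM in the Veh libraries, 25.4, 13.1 and 28.7 CPM with rhWnt3a, and 17.5, 12.5 and 23.2 CPM with rhWnt3a and OSMI. Both treated groups were above Veh and overlapped each other, with the side B libraries rhWnt3a replicate 2 and rhWnt3aOSMI replicate 2 lowest. Its rise was 3.61-fold with rhWnt3a (log2 fold change 1.85 ± 0.34, adjusted p = 0.00694) and 1.51 ± 0.34 (adjusted p = 0.0146) on the log2 scale against Veh with OSMI, a call lost without Veh replicate 1 (adjusted p 0.0565).

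Epha3 (chr16:63543534-63864175, - strand), a receptor of A-type ephrins, had 87.8, 72.9 and 57.2 CPM in the Veh libraries, 55.7, 43.4 and 51.6 CPM with rhWnt3a, and 36.1, 39.03 and 41.8 CPM with rhWnt3a and OSMI. The 3 groups did not overlap, in the order Veh, rhWnt3a, OSMI. The call was made for the whole distance (log2 fold change -0.90 ± 0.17, adjusted p = 0.00692) and for neither step (-0.53 ± 0.17 (adjusted p = 0.093) and -0.37 ± 0.17 (adjusted p = 0.238)). Epha2 (chr4:141301240-141329384, + strand), which binds ephrin-A1, had 64.3, 74.03 and 77.5 CPM in the Veh libraries, 63.4, 49.97 and 58.3 CPM with rhWnt3a, and 87.9, 79.1 and 93.9 CPM with rhWnt3a and OSMI. With OSMI it was above all other libraries and with rhWnt3a below all others. It was the one guidance gene called higher when OSMI was added (log2 fold change 0.60 ± 0.14, adjusted p = 0.0374), and this call was kept without Veh replicate 3 and lost without any of the other 8 libraries (adjusted p 0.0513 to 0.123), and without the 3 libraries that stood apart (log2 fold change 0.45). Of the receptors with no call, Ephb4, the receptor of ephrin-B2, ranged over 59.04 to 81.6 CPM in Veh, 65.2 to 73.6 CPM with rhWnt3a and 50.3 to 78.1 CPM with rhWnt3a and OSMI, with -0.10 ± 0.19 (adjusted p = 0.865), -0.15 ± 0.19 (adjusted p = 0.653) and -0.25 ± 0.19 (adjusted p = 0.405). Ephb3 ranged over 82.2 to 98.6 CPM in Veh, 56.6 to 72.03 CPM with rhWnt3a and 42.6 to 78.6 CPM with rhWnt3a and OSMI, with log2 fold changes of -0.49 ± 0.22 (adjusted p = 0.254), -0.23 ± 0.22 (adjusted p = 0.547) and -0.72 ± 0.22 (adjusted p = 0.0547). Ephb4 overlapped between all groups, while Ephb3 in Veh lay above both treated groups.

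Slit2 rose with rhWnt3a and its receptors were not called. Slit2 (chr5:47983138-48307733, + strand), a secreted repellent, had 228, 229.7 and 176 CPM in the Veh libraries, 488, 337 and 487 CPM with rhWnt3a, and 419, 445 and 555 CPM with rhWnt3a and OSMI. All treated libraries were above Veh, and the 2 treated groups overlapped. The rise was 2.07-fold with rhWnt3a (log2 fold change 1.05 ± 0.20, adjusted p = 0.00777), and the difference from Veh with OSMI was 1.16 ± 0.20 (adjusted p = 0.00356), while the step with OSMI was 0.11 ± 0.19 (adjusted p = 0.747). Both calls held with each library left out in turn and with a gene length correction. With that correction the log2 fold changes were 1 with rhWnt3a and 0.744 against Veh with OSMI. Robo1 ranged over 128 to 239 CPM in Veh, 95.2 to 169 CPM with rhWnt3a and 104 to 169 CPM with rhWnt3a and OSMI, with log2 fold changes of -0.50 ± 0.30 (adjusted p = 0.431), -0.16 ± 0.30 (adjusted p = 0.78) and -0.66 ± 0.30 (adjusted p = 0.173). Robo2 ranged over 27.3 to 42.3 CPM in Veh, 18.2 to 33.3 CPM with rhWnt3a and 27.1 to 38.1 CPM with rhWnt3a and OSMI, with -0.37 ± 0.25 (adjusted p = 0.504), 0.23 ± 0.25 (adjusted p = 0.588) and -0.13 ± 0.25 (adjusted p = 0.746). For both receptors every pair of groups overlapped, and the lowest library in Veh and with rhWnt3a was the one that stood apart.

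Since sides A and B divide the libraries within groups, each difference was also taken within a side, as a value with no test. All 13 genes called with rhWnt3a kept their direction on both sides, as did the 4 called with OSMI added and the 17 called against Veh with OSMI. These genes were called on the same libraries, so the shared direction is a description and not separate evidence for the calls. Of the genes not called, 18 of 27, 25 of 36 and 17 of 23 kept the direction of the fit on both sides in the 3 comparisons. Sizes differed between sides for some genes: Sema3b differed from Veh with OSMI by -2.87 on side A and -4.36 on side B, and Sema3c differed with rhWnt3a by 1.19 and 0.56. Sema5a, higher against Veh with OSMI, differed by 1.79 and 2.28.

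**Figure D5:**
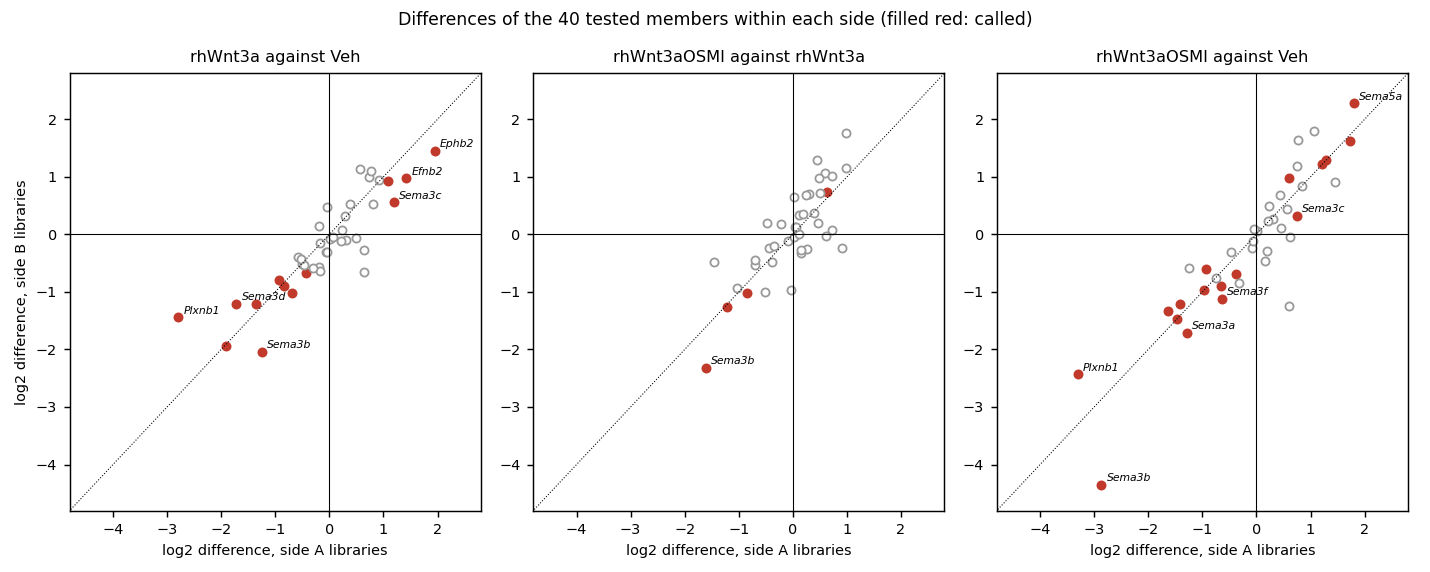
Log2 differences of the 40 tested guidance genes within side A (horizontal) and within side B (vertical) in the 3 comparisons, with filled red points for called genes, names for the called genes farthest from the diagonal, and a dotted line where both sides are equal. All called genes have the same direction on both axes, with Plxnb1 and Sema3b farthest out.

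Genes of the same pathways outside the rule were read from 4 lists. Of 19 netrin, RGM and draxin ligands and their receptors, 11 were tested, and with rhWnt3a 3 were called higher and 3 lower, where 2.92% and 5.86% of all tested genes were called. The netrin Ntn1, a secreted attractant, rose from 24.3, 27.01 and 25.1 CPM to 77.7, 54.8 and 79.4 CPM and stood at 92.5, 71.7 and 124 CPM with OSMI. No Veh library overlapped with a treated one, and the log2 fold changes were 1.47 ± 0.22 (adjusted p = 0.0021) with rhWnt3a and 1.92 ± 0.22 (adjusted p = 0.000435) against Veh with OSMI. The membrane-anchored netrin Ntng2 was called higher in the same comparisons, 0.78 ± 0.20 (adjusted p = 0.0382) and 0.94 ± 0.20 (adjusted p = 0.0122), and Flrt2, a ligand of Unc5 receptors, with rhWnt3a, 0.94 ± 0.18 (adjusted p = 0.00977). Called lower with rhWnt3a were Ntng1, -0.72 ± 0.17 (adjusted p = 0.0245), the netrin receptor Unc5b, -0.82 ± 0.21 (adjusted p = 0.0394), and Flrt3, -1.003 ± 0.17 (adjusted p = 0.00533), and the last 2 also against Veh with OSMI, -1.02 ± 0.21 (adjusted p = 0.0109) and -0.996 ± 0.17 (adjusted p = 0.00431). Adding OSMI to rhWnt3a gave 0 calls in this list by edgeR, with 2 genes at an unadjusted p under 0.05, and 0 by DESeq2.

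Of 23 genes of plexin and neuropilin signalling, 20 were tested, with 2 called higher and 1 lower with rhWnt3a (2.92% and 5.86% of all tested genes) and 3 higher and 2 lower against Veh with OSMI (4.84% and 9.34%). L1cam, an adhesion molecule that works with Nrp1, fell from 11.4, 13.7 and 6.33 CPM to 0.912, 0.398 and 1.68 CPM with rhWnt3a (log2 fold change -3.39 ± 0.50, adjusted p = 0.00211) and stood at 0.302, 0.918 and 0.816 CPM with OSMI (log2 fold change -3.93 ± 0.52, adjusted p = 0.000987 against Veh). The Veh libraries were above all others. Dpysl3, of the collapsin response mediators that carry the class 3 semaphorin signal, rose from 21.5, 27.01 and 28.5 CPM to 129, 85.05 and 119 CPM (log2 fold change 2.11 ± 0.20, adjusted p = 0.000171) and was at 89.8, 70.4 and 67.4 CPM with OSMI (log2 fold change 1.56 ± 0.20, adjusted p = 0.000745 against Veh). The GTPase Rnd3 was also higher with rhWnt3a, 0.63 ± 0.17 (adjusted p = 0.0444). Against Veh with OSMI the kinase Fyn, 0.59 ± 0.16 (adjusted p = 0.0367), and Mical2, an enzyme that oxidises actin, 0.96 ± 0.25 (adjusted p = 0.0306), were higher, and the kinase Fes was lower, -1.51 ± 0.28 (adjusted p = 0.00616). When OSMI was added, 0 of the 20 were called by edgeR, with 5 at an unadjusted p under 0.05, and 1 by DESeq2.

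Of 19 genes of Eph and ephrin signalling, 13 were tested, and the calls were the adaptors Nck1, -0.69 ± 0.17 (adjusted p = 0.0262), and Nck2, -0.84 ± 0.15 (adjusted p = 0.00445), both lower against Veh with OSMI, where 9.34% of all tested genes were called lower. With rhWnt3a 0 of these 13 were called by edgeR, with 2 at an unadjusted p under 0.05, and 1 by DESeq2, and when OSMI was added 0 were called by either tool or at an unadjusted p under 0.05. All 13 genes of Slit and Robo signalling were tested, and with rhWnt3a 2 were called lower (5.86% of all tested genes). When OSMI was added 2 were called higher (1.69% of all tested genes). Against Veh with OSMI 2 were called higher and 1 lower (4.84% and 9.34% of all tested genes). With rhWnt3a Dag1, the dystroglycan that binds Slits, fell (log2 fold change -1.59 ± 0.28, adjusted p = 0.00599) from 1028, 1061 and 555 to 319, 219.7 and 339 CPM, and Vasp, an actin regulator, fell by less (log2 fold change -0.65 ± 0.14, adjusted p = 0.0174). Both were below Veh in every rhWnt3a library. When OSMI was added, Srgap3, a GTPase-activating protein of Robo signalling, was higher (log2 fold change 1.23 ± 0.26, adjusted p = 0.0288), as was the actin regulator Enah (log2 fold change 0.87 ± 0.14, adjusted p = 0.00888). Against Veh with OSMI, Srgap3, 1.22 ± 0.26 (adjusted p = 0.012), and Sos2, an exchange factor, 0.63 ± 0.17 (adjusted p = 0.0371), were higher and Vasp was lower, -0.53 ± 0.14 (adjusted p = 0.031). The median log2 fold changes of the 4 lists, in the order given, were -0.08, -0.08, -0.06 and 0.07 with rhWnt3a, 0.16, -0.09, 0.21 and 0.41 with OSMI added, and -0.05, 0.03, 0.18 and 0.49 against Veh with OSMI, beside medians of all tested genes of 0.04, -0.01 and -0.01.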

How the data were processed

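Poly-A RNA was sequenced from 9 ST2 libraries, 3 per group. The authors deposited a table of raw counts per gene. The submitters' processing notes name CASAVA, fastp, HISAT2 2.0.5, featureCounts 1.5.0-p3 and the mm10 build; the annotation release and strand settings are not given in the sources used here. The FPKM values, group means, fold changes and p-values deposited in the same table were not used.

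Members were protein-coding genes with names of the semaphorin 3 to 7, plexin, neuropilin, ephrin, Eph, Slit and Robo families. The members, marker lists and pathway lists were chosen with earlier results of these data known. Groups followed the sample titles. Counts were tested with edgeR 4.0.16 (R 4.3.3): default filterByExpr settings (10 counts at least, and 15 in total), TMM scaling, the two-sided quasi-likelihood test on all 9 libraries, and Benjamini-Hochberg adjustment over 14004 genes. The study used DESeq2 with the same log2 threshold of 0.5. CPM and RPKM were computed from the counts with TMM-scaled totals and the table's gene lengths. Standard errors and p-values come from the edgeR fit and include the spread between libraries, and the floor of 3 counts covers counting error only. The fit was also run on simulated counts, drawn independently for each library with a common dispersion for all genes. That simulation held no axis of deviations like the one in these libraries, so it cannot speak to it, and its outcome is not reported here. Differences within sides are of log2 CPM with a prior count of 2.

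Every called member is named with its value in each library, and of those not called the 2 with the highest mean RPKM per family. Called genes of the pathway lists are named. Positions are from the count table. Exon overlaps used GENCODE M21, and sequences shared between genes were searched with BLAST 2.17.0, which found no other gene near-identical to a member. Promoter sequences are from RefSeq (GRCm38.p6), 53 of 60 matched by symbol, with none used for Efnb3, Plxna1, Plxna4, Sema3b, Sema3f, Sema6a and Slit1. Alternatives covered size factors, DESeq2 1.42.0, other filters, other thresholds, a gene length correction (loess span 0.4), replicate blocks and left-out libraries.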

Additional observations from a re-analysis of the deposited data

How the results depend on the processing

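The 34 calls of guidance genes kept their direction in every fit; 22 held with each library left out in turn, 31 under a gene length correction and 31 without the 3 libraries that stood apart. Over all alternatives, 629 refits of called genes kept the call and 85 lost it. The settings without the log2 threshold and at unadjusted p loosened the call on the same fit, so they could not lose one. Of the genes not called, 121 refits gave a call in the direction seen in the report and 1 in the opposite direction. Counts of called guidance genes with 1 library left out were 10 to 14 for rhWnt3a against Veh (13 in the report), 2 to 6 for OSMI added to rhWnt3a (4 in the report), and 11 to 18 for rhWnt3a and OSMI against Veh (17 in the report). For rhWnt3a against Veh the count was 20 without the 3 libraries that stood apart and 20 on side A. For OSMI added to rhWnt3a it was 10 by DESeq2, 9 with no count filter, 14 at unadjusted p, 9 with the gene length correction, 15 without the 3 libraries that stood apart and 17 on side A. The last 2 settings were chosen after seeing the data. The log2 fold change of Plxnd1, rhWnt3aOSMI against Veh, was 0.01 and not called, and -0.60 without the 3 libraries that stood apart; the cause was not tested. Over all genes the counts in the 3 comparisons were 1230, 664 and 1986. They were 2155, 2271 and 3186 at unadjusted p, 2557, 1789 and 3351 without the 3 libraries that stood apart, and 2560, 4025 and 5079 on side A. For OSMI added to rhWnt3a they were 1297 by DESeq2, 1481 with no filter, 992 with the gene length correction and 345 on its 6 libraries alone. With 1 library left out they ran from 716 to 1506, 203 to 764 and 1218 to 2328 in the 3 comparisons. Same-numbered libraries did not deviate together in every pair (correlations of -0.49 to 0.44, with means of -0.18, 0.13 and -0.31), so they were not taken as paired; in fits with a replicate block the counts of guidance genes were 12, 3 and 12 and of all genes 809, 233 and 1297, and 27 of the 34 calls held. With the block and the length correction together 15, 4 and 16 guidance genes were called, and 1193, 545 and 1751 of all genes (8.52%, 3.89% and 12.5%). The 20 guidance genes under the count filter were not tested, and a count of 0 allows up to 0.170 to 0.191 CPM per library.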
